A study of Homo sapiens with 9 samples.

Results

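Replication-dependent histone genes encode the bulk of the histones that package newly made DNA, and their mRNAs were measured here in human Hap1 cells that rely, by design, on a variant or wild-type copy of SARS2. The set was taken by gene name and biotype: protein-coding genes named H1-1 to H1-6, H2AC, H2BC, H3C or H4C followed by a number. It held 69 of the 78894 genes in the deposited tables, with 6 linker histone H1 genes, 17 H2A, 18 H2B, 13 H3 and 15 H4 genes. Hap1 is a near-haploid human cell line of chronic myeloid leukaemia origin. The SARS2 gene encodes the mitochondrial seryl-tRNA synthetase, which attaches serine to mitochondrial tRNAs. All cells carried a deletion in the endogenous SARS2 gene and a doxycycline-inducible, FLAG-tagged SARS2 copy, and were grown for 6 days without doxycycline. They also carried a constitutive, myc-tagged SARS2 copy, named with the suffix int14 that the labels do not explain, and that copy was R227Q, H448L or wild type (WT). There were 3 libraries of each genotype. The labels do not give the number of clones or say that each library is its own culture, and the p-values below reflect library-to-library spread, which may be technical.

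Histone mRNAs of this family differ from other mRNAs at their ends. Their genes sit in clusters, mostly lack introns, and are transcribed in S phase under the coactivator NPAT. The usual transcript is cut just after a short stem-loop and receives no poly-A tail. The stem-loop binding protein SLBP holds that end through processing, export, translation and decay. Some of these genes can also give transcripts that read past the stem-loop to a poly-A signal. The labels describe capture of poly-A mRNA by a commercial sequencing service, so a level here describes what that capture retained and is not the total amount of a histone mRNA. In these bulk samples, fewer cells in S phase and less histone mRNA per cell cannot be told apart.

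SARS2 itself was measured at 7.09 to 8.68 CPM in the R227Q libraries, 7.88 to 8.68 CPM in the H448L libraries and 6.20 to 8.54 CPM in the WT libraries, where CPM stands for counts per 1000000 counts of a library. The groups overlapped and none was called against WT, and the tables cannot tell the deleted, inducible and constitutive copies apart. The libraries came in 2 submissions to the service, named in the column headers. Submission 4LJFHN held R227Q 2 and 3, H448L 1 to 3 and WT 3, and submission SDKYMR held R227Q 1, WT 1 and WT 2. No H448L library was in SDKYMR, and WT 3 was the sole WT library in 4LJFHN. Totals were 9900899 to 12991061 counts per library, spike-ins included, so 1 count was worth 0.0770 to 0.101 CPM. Each result below comes from edgeR's quasi-likelihood test with genotype and submission as terms, over 16908 genes that passed a filter on low counts, with a change called at a Benjamini-Hochberg adjusted p under 0.05. Of 10 haematopoietic markers 6 were under 1 CPM on average, and the list summed to 56.1 to 72.4 CPM over all libraries. Of 5 epithelial markers 2 were under 1 CPM on average, and that list summed to 78.0 to 92.2 CPM over all libraries.

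The stem-loop is the element that sets this family apart, so it is shown for 7 members whose levels are described later. The letters come from GENCODE v29 transcripts (GRCh38), written as DNA from 5′ to 3′, with the 16-base stem-loop in capitals and 5 bases to each side in lower case.
H2AC25: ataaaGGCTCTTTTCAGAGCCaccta
H2BC5: ccaaaGGCTCTTTTAAGAGCCacgca
H2BC21: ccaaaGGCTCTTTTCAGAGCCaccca
H3C14: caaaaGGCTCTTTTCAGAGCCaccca
H4C5: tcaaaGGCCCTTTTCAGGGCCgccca
H4C8: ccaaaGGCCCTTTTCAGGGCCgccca
H4C9: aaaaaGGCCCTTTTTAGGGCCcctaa
The H2A, H2B and H3 members shown had GGCTC as the left arm of the stem, and the H4 members had GGCCC. On GRCh38 the capitals lie at chr1:228457369-228457384, minus strand for H2AC25, at chr6:26158587-26158602, plus strand for H2BC5 and at chr1:149886188-149886203, minus strand for H2BC21. They lie at chr1:149840692-149840707, minus strand for H3C14, at chr6:26205001-26205016, plus strand for H4C5, at chr6:26285131-26285146, minus strand for H4C8 and at chr6:27139654-27139669, plus strand for H4C9. The form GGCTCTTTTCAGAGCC occurred in 4 H2A, 8 H2B and 3 H3 genes, and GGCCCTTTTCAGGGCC in 5 H4 genes. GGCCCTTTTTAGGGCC occurred in 3 H4 genes. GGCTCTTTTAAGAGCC occurred in 3 H2B genes and 1 H3 gene.

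Of the 69 members, 65 were found by identifier in GENCODE v29. Of those, 53 lie on chromosome 6, between positions 25726132 and 27893843, 11 on chromosome 1 and 1 on chromosome 12. A stem-loop was present in an annotated transcript of 29 members. Over all 19922 protein-coding genes there were 36 with one (0.181%), and that count includes the 29 members. The search allowed the varied stem pair to be C with G, T with A or T with G and read the transcript strand only. Many of the other members are annotated only to the stop codon, and for these the absence of a stem-loop says only that the annotation does not reach it. Some others, H4C3 among them, have a transcript longer than the coding length. For those the absence means that no letters in the annotated transcript matched the search. A poly-A hexamer, AATAAA or ATTAAA, lay in the last 50 bases of a transcript for 21 members, against 84.2% of protein-coding genes. Where the annotation stops at the stop codon, a hexamer past it could not be found, so the count of 21 may be too low.

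Promoters are shown for the 3 H1 genes and the 2 H2B genes called in the comparisons with WT. Each is 300 bases around the gene's start from RefSeq (GRCh38.p14), 5′ to 3′ on the gene's strand, with matches on either strand in capitals. The motifs searched were AAACACA (the H1 box), CCAAT (the CCAAT box), TATAAA and, as a second TATA form, TATATA, together with ATTTGCAT (the octamer).
H1-2: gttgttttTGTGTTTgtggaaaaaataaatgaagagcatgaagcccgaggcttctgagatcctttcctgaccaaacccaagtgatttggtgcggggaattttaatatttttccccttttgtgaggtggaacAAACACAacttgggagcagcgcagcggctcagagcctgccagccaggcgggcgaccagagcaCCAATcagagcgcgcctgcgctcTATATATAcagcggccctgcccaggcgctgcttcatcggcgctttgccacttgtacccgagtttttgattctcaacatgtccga
H1-3: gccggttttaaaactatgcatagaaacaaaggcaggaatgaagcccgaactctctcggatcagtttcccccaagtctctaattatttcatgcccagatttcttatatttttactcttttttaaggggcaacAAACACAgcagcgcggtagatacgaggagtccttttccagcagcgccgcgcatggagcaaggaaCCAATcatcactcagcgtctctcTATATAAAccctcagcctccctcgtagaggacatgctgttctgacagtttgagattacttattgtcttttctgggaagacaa
H1-4: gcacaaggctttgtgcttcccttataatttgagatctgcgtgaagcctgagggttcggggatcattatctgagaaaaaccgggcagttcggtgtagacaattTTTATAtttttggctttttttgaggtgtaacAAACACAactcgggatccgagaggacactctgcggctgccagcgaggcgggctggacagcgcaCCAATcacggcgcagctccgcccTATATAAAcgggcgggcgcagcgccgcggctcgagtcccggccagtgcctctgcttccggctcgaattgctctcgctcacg
H2BC12: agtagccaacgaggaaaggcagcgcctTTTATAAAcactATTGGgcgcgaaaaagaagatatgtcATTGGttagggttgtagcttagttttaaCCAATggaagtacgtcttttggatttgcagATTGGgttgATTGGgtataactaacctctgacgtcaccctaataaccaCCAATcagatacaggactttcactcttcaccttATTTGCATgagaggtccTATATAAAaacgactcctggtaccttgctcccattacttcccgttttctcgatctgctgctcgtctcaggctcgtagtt
H2BC11: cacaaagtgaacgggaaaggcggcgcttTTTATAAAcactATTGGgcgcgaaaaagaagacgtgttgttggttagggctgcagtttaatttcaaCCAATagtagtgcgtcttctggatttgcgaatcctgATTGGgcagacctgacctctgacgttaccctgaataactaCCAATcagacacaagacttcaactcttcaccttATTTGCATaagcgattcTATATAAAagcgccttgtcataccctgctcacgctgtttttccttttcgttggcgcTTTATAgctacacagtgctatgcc
These promoters lie at chr6:26056421-26056720, minus strand for H1-2, at chr6:26234938-26235237, minus strand for H1-3 and at chr6:26156079-26156378, plus strand for H1-4. Those of H2BC12 and H2BC11 lie at chr6:27146809-27147108, minus strand, and at chr6:27132746-27133045, minus strand. All 3 H1 promoters hold AAACACA upstream of CCAAT and a TATA-type match, and both H2B promoters hold ATTTGCAT a few bases upstream of TATATAAA. TATAAA and TATATA can overlap each other, as they do in that run. A promoter was found for 64 members, and not for H2AC12, H3C11, H3C12, H4C1 and H4C3. AAACACA was in 6 of 6 H1 promoters, against 5.76% of 27305 promoters of the same length. ATTTGCAT, which POU2F1 binds, was in 11 of 16 H2A and 14 of 18 H2B promoters and in no H1 or H4 promoter, against 1.80% of all. CCAAT was in 54 of 64 member promoters against 35.7% of all, and TATAAA in 42 against 11.95%. A match is a description of letters and not evidence that a factor binds there.

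Most members were scarcely detected. No count was found in any library for 9 members: H1-6, H2AC1, H2AC16, H2BC1, H2BC13, H3C3, H3C7, H4C7 and H4C13. A further group was close to that, since 22 members in all averaged under 3 counts. A count was present in all 9 libraries for 45 members, 30 averaged at least 1 CPM, and 5 averaged at least 10 CPM. These 5 were H4C3, H1-2, H2BC12, H2AC25 and H1-4. All members together made up 0.0699% to 0.161% of a library's counts. Fractional counts occurred in 32 members, so reads may have been shared between near-identical genes, and member levels are uncertain for that reason. H3C14 and H3C15 had equal counts in 9 of 9 libraries, as did H4C14 and H4C15. H2AC18 and H2AC19 had equal counts in 8 of 9 libraries and differed by 0.5 in the other. Each pair is therefore a single measurement.

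**Figure D1:**
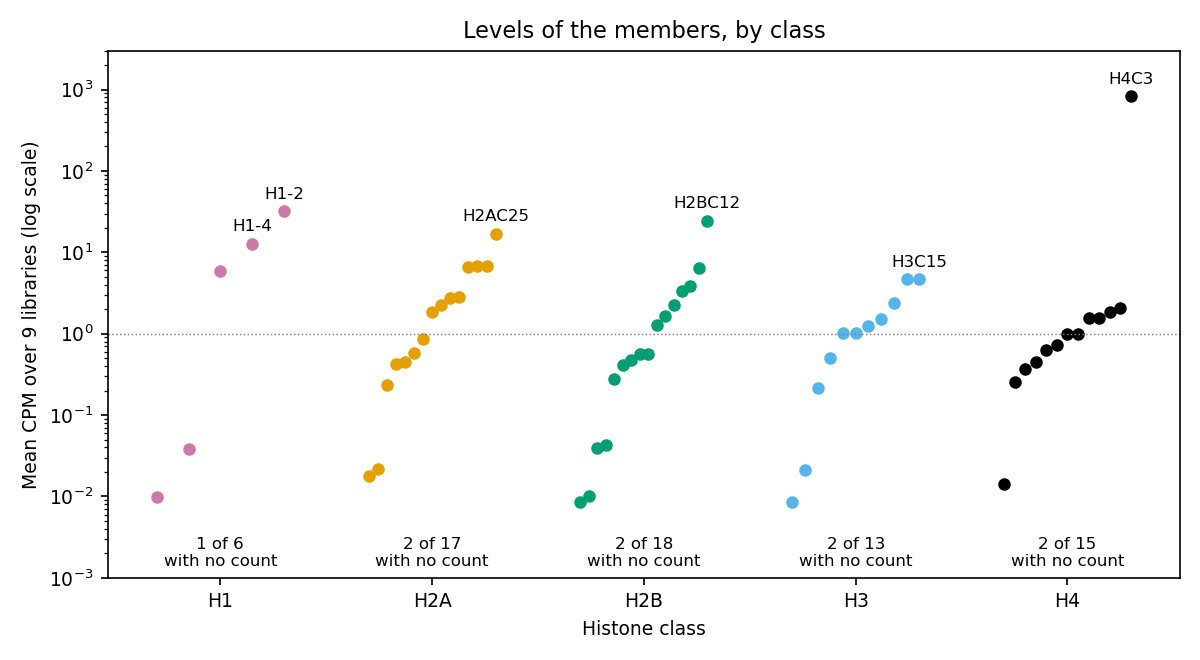
Mean CPM over 9 libraries (log scale) of every member with a count, by histone class, with the number of members without a count under each class. H4C3 averaged 832 CPM, while the next member, H1-2, averaged 31.8 CPM and the other H4 genes were at or below 2.08 CPM.

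H4C3 dominated the set. It is a gene for histone H4, a core histone that pairs with H3 in the nucleosome, and it lies at chr6:26103876-26104310 on the plus strand (ENSG00000197061). Its level was 705, 709.8 and 646 CPM in the R227Q libraries, 650.4, 726 and 528 CPM in the H448L libraries, and 1213, 1432 and 879.8 CPM in WT 1 to 3. Every variant library was below every WT library, and WT 3, the WT library of submission 4LJFHN, was the lowest WT library. H4C3 took 75.6% to 89.0% of the summed CPM of all members in a library and ranked between 88 and 253 among all genes. Per kilobase of coding length it averaged 2668 CPM, while no other member was above 64.6 CPM per kilobase. In the GENCODE transcript of H4C3 no letters matched the stem-loop search, which does not show that the mRNA lacks one. No poly-A hexamer lay in its last 50 bases, and 19 of its last 25 bases are A. H2BC8 had 25 of 25, no other member had more than 15, and 4.62% of protein-coding genes had at least as many as H4C3. H2BC8 was at 0.568 CPM on average. The part of the annotated end in the level of H4C3 was not tested.

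The annotated end divided the other members only in part. The 21 members with a hexamer near an annotated end had a median of 4.48 CPM per kilobase of coding length, and the 44 without had 1.11, or 1.08 without H4C3. In the first group 14 of 21 averaged at least 1 CPM and none lacked counts. In the second group 13 of 44 did, and 8 had no count. The groups overlapped widely. Many members of the second group are annotated only to the stop codon, so a hexamer past it could not be found. Transcripts of unlike annotated length were all scaled by coding length alone. The part of annotation length in these medians was not tested. H2AC25, an H2A gene on chromosome 1 that has a stem-loop and a downstream hexamer, was at 43.3 CPM per kilobase, and H2BC5 was at 16.8. H2BC12 at 64.6, H1-2 at 49.6 and H1-4 at 19.4 CPM per kilobase were in the group with no annotated hexamer.

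**Figure D2:**
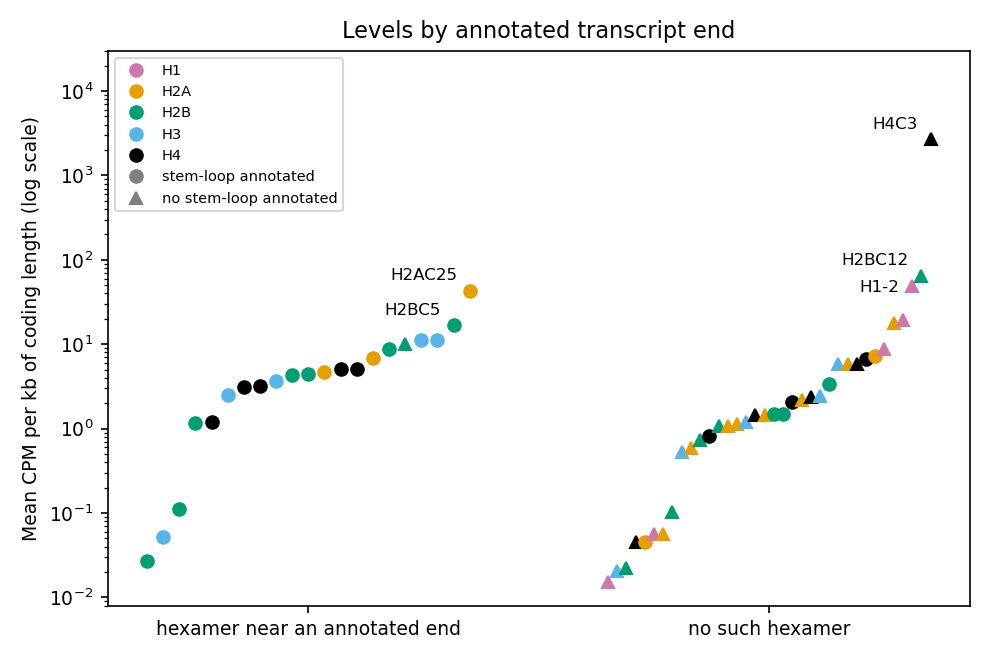
Mean CPM per kilobase of coding length (log scale) of the members found in GENCODE v29 with a count, split by a poly-A hexamer in the last 50 bases of any annotated transcript. The median was 4.48 with a hexamer and 1.11 without, and H4C3 at 2668 stands far above both groups. Members annotated only to the stop codon are all in the group without.

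Comparing R227Q with WT addressed how these mRNAs differ when cells depend on the R227Q enzyme. Of 33 members that passed the filter, 9 were lower in R227Q cells and none was higher, where 9.91% of all genes tested were lower and 7.50% higher, 17.4% in all. The 9 were H4C3, the linker histones H1-2, H1-3 and H1-4, H2AC12, H2BC12, the inseparable pair H3C14 and H3C15, and H4C5. With each pair that shares reads summed, 8 of 30 were lower. The median log2 fold change of the 33 members was −0.38, against 0.00 over all genes tested, and 24 of 33 were below 0. Members that passed only through WT levels could only be low in the variants, so these counts do not speak for all 69. Without a submission term in the fit, none of the 33 was called, and without WT 3 there were 2, H1-3 and H4C3.

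H4C3 averaged 686.8 ± 35.8 CPM in R227Q and 1175 ± 278 CPM in WT libraries (SD, n = 3 each). The log2 fold change was −0.65 ± 0.09 (SE, edgeR adjusted p = 3.01e-06), a level 1.57-fold lower. It was −0.92 within SDKYMR and −0.39 within 4LJFHN, and leaving out any library kept the call, with values from −0.92 without WT 3 to −0.39 without R227Q 1. Without the submission term the value was −0.81 and did not pass (edgeR adjusted p = 0.0528).

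The linker histones bind nucleosomes where DNA enters and leaves. H1-2 had 20.4, 25.7 and 31.3 CPM in the R227Q libraries and 28.9, 25.5 and 51.1 CPM in WT 1 to 3. The groups overlapped as deposited, while within each submission every R227Q library was below every WT library. The fitted log2 fold change was −0.68 ± 0.09 (SE, edgeR adjusted p = 3.24e-06). H1-4 had 7.66, 11.2 and 9.47 CPM in R227Q and 11.5, 11.4 and 24.7 CPM in WT libraries, which did not overlap by a small margin. Its log2 fold change was −1.03 ± 0.13 (SE, edgeR adjusted p = 1.46e-06). WT 3 was the highest of all 9 libraries for both genes. Without WT 3 the log2 fold changes were −0.42 for H1-2 and −0.59 for H1-4, and neither call was kept (edgeR adjusted p = 0.0515 and 0.0583). H1-3 had 3.10, 6.30 and 6.80 CPM in R227Q and 6.16, 5.67 and 7.60 CPM in WT libraries, so R227Q 1 stood low and the other libraries overlapped. Its log2 fold change of −0.49 ± 0.16 (SE, edgeR adjusted p = 0.0264) was not called without R227Q 1 (−0.22) or without WT 1 (−0.44), and was −0.94 without WT 3.

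Core histone genes with calls in R227Q were mostly at low levels. H2BC12 had 30.6, 19.6 and 19.5 CPM in R227Q and 32.0, 32.2 and 26.4 CPM in WT libraries. R227Q 1 was close to its 2 WT partners in SDKYMR, and R227Q 2 and 3 were below WT 3 in 4LJFHN. The log2 fold change was −0.23 ± 0.08 (SE, edgeR adjusted p = 0.0333). It was −0.08 within SDKYMR and −0.44 within 4LJFHN. The call was lost without WT 3 (−0.08), R227Q 2 (−0.20) or R227Q 3 (−0.21). H3C14, counted together with H3C15, had 3.42, 3.66 and 2.80 CPM in R227Q and 5.45, 5.68 and 5.51 CPM in WT libraries, with no overlap. Its log2 fold change was −0.75 ± 0.18 (SE, edgeR adjusted p = 0.00412). It was −0.71 within SDKYMR and −0.78 within 4LJFHN, and it was not called without WT 3 (−0.71) or R227Q 1 (−0.79). H3C14 and H3C15 each overlap an H4 gene on the opposite strand, H4C14 and H4C15, and the labels do not say whether counting used strand. H2AC12 and H4C5 also had no overlap between groups. H2AC12 had 1.73, 2.13 and 1.46 CPM in R227Q and 2.31, 2.64 and 3.53 CPM in WT libraries, a log2 fold change of −0.80 ± 0.26 (SE, edgeR adjusted p = 0.0329). H4C5 had 0.733, 0.622 and 0.648 CPM in R227Q and 1.15, 1.71 and 1.45 CPM in WT libraries, a log2 fold change of −1.08 ± 0.35 (SE, edgeR adjusted p = 0.0288). These 2 genes averaged 26.1 and 11.8 counts per library. H2AC12 was not called without WT 2 (−0.79), WT 3 (−0.54), R227Q 1 (−0.99) or R227Q 3 (−0.64), and H4C5 without WT 2 (−0.97), WT 3 (−0.97) or any R227Q library (−1.18 to −1.04).

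The remaining 24 tested members were not called in R227Q. H2AC25, the highest H2A gene, had 18.1, 15.01 and 19.6 CPM in R227Q and 18.2, 16.7 and 16.3 CPM in WT libraries, with a log2 fold change of 0.06 ± 0.09 (SE, edgeR adjusted p = 0.719). In deposited CPM, 10 of 33 members had all R227Q libraries below all WT libraries, against 8.10% of genes tested, and none had all above, against 11.1%. Those 10 were H1-4, H2AC12, H2BC4, H3C2, H3C8, H3C13, H3C14, H3C15, H4C3 and H4C5. Here H3C14 and H3C15, a single measurement, are counted as separate members, and the CPM are not adjusted for submission.

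**Figure D3:**
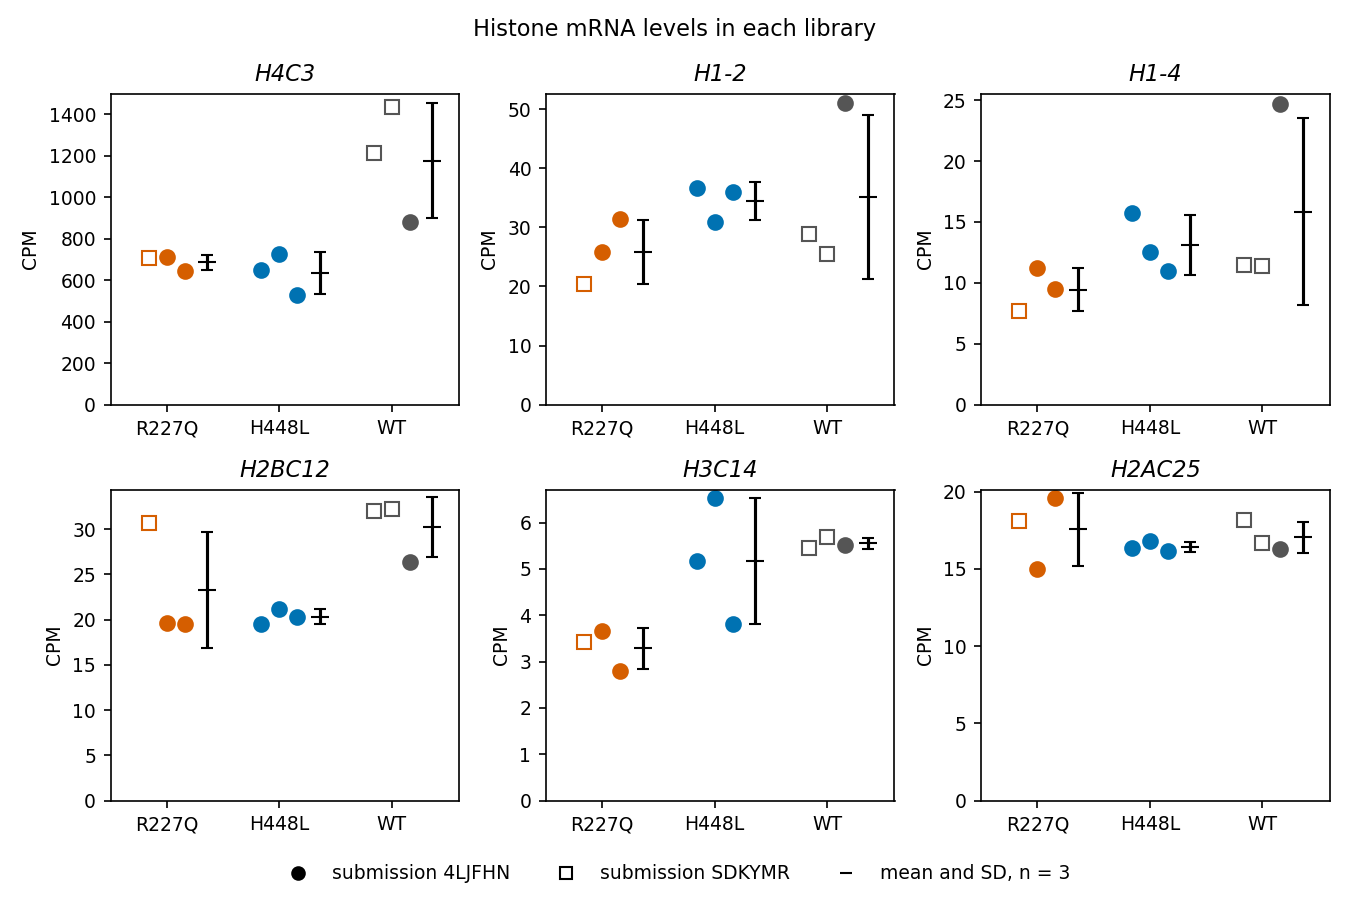
CPM in each library of 6 members, with open squares for submission SDKYMR, filled circles for 4LJFHN, and bars for the mean and SD (n = 3). H4C3 sits at 528 to 726 CPM in the variant libraries and 879.8 to 1432 CPM in WT, while H1-2 and H1-4 are highest in WT 3, at 51.1 and 24.7 CPM.

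In the comparison of H448L with WT, 5 of 33 members were lower and none was higher, where 4.99% of genes tested were lower and 2.97% higher, 7.97% in all. The 5 were H4C3, H1-2, H1-3, H1-4 and H2BC11. The median log2 fold change was −0.18, against 0.01 over all genes tested, and 26 of 33 members were below 0. All H448L libraries belong to 4LJFHN, so this comparison leans on WT 3 and on the fitted submission term. Without WT 3, 3 members were called, and without the submission term 1 was, H4C3. Both variants were compared with the same WT libraries, so their values are not independent of each other.

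H4C3 averaged 635.1 ± 99.8 CPM in H448L and 1175 ± 278 CPM in WT libraries (SD, n = 3 each), and no H448L library reached the level of WT 3. The log2 fold change was −0.67 ± 0.10 (SE, edgeR adjusted p = 4.89e-05), a level 1.59-fold lower. Within 4LJFHN it was −0.49, and the call held with any library left out, with values from −1.02 without WT 3 to −0.49 without R227Q 1.

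H1 genes gave a different picture in deposited and fitted values. H1-2 had 36.7, 30.8 and 36.1 CPM in H448L 1 to 3, inside the range of 25.5 to 51.1 CPM of the WT libraries. H1-4 had 15.8, 12.6 and 11.01 CPM in H448L, against 11.5, 11.4 and 24.7 CPM in WT libraries. Each H448L library was below WT 3 for both genes, and all but the H1-4 value of H448L 3 were above WT 1 and WT 2. The fitted log2 fold changes were −0.49 ± 0.10 for H1-2 and −0.80 ± 0.14 for H1-4 (SE, edgeR adjusted p = 0.00178 and 3.67e-04). Without WT 3 they were −0.17 and −0.24 and were not called (edgeR adjusted p = 0.734 and 0.732). H1-3 had 5.61, 5.08 and 6.77 CPM in H448L, against 6.16, 5.67 and 7.60 CPM in WT libraries, with overlap. Its log2 fold change was −0.59 ± 0.18 (SE, edgeR adjusted p = 0.0369), and the call was lost with 5 of the 9 libraries left out in turn, with values from −1.14 without WT 3 to −0.41 without R227Q 1.

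H2BC11 had 3.56, 1.80 and 2.42 CPM in H448L and 5.47, 5.20 and 4.25 CPM in WT libraries, with no overlap. The R227Q libraries, at 3.26, 4.31 and 4.05 CPM, overlapped both groups. The log2 fold change in H448L was −0.93 ± 0.24 (SE, edgeR adjusted p = 0.0132), and in R227Q it was −0.38 ± 0.19 (SE, edgeR adjusted p = 0.167). The H448L call was lost without H448L 2 (−0.73) or R227Q 1 (−0.71). H2BC12, at 19.5, 21.2 and 20.3 CPM in H448L, was below each WT library, with a log2 fold change of −0.27 ± 0.10 that did not pass (SE, edgeR adjusted p = 0.0874). In deposited CPM 5 of 33 members had all H448L libraries below all WT libraries, against 11.9% of genes tested: H2AC6, H2BC11, H2BC12, H4C3 and H4C9. None had all above, against 19.7%. These CPM are not adjusted for submission, and all H448L libraries belong to 4LJFHN. With submission in the fit H2AC6 stood at −0.07 and H4C9 at −0.64, neither called (edgeR adjusted p = 0.914 and 0.195). H2AC6, H2BC12 and H4C3 were also lower in 4LJFHN than in SDKYMR with genotype in the fit.

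**Figure D4:**
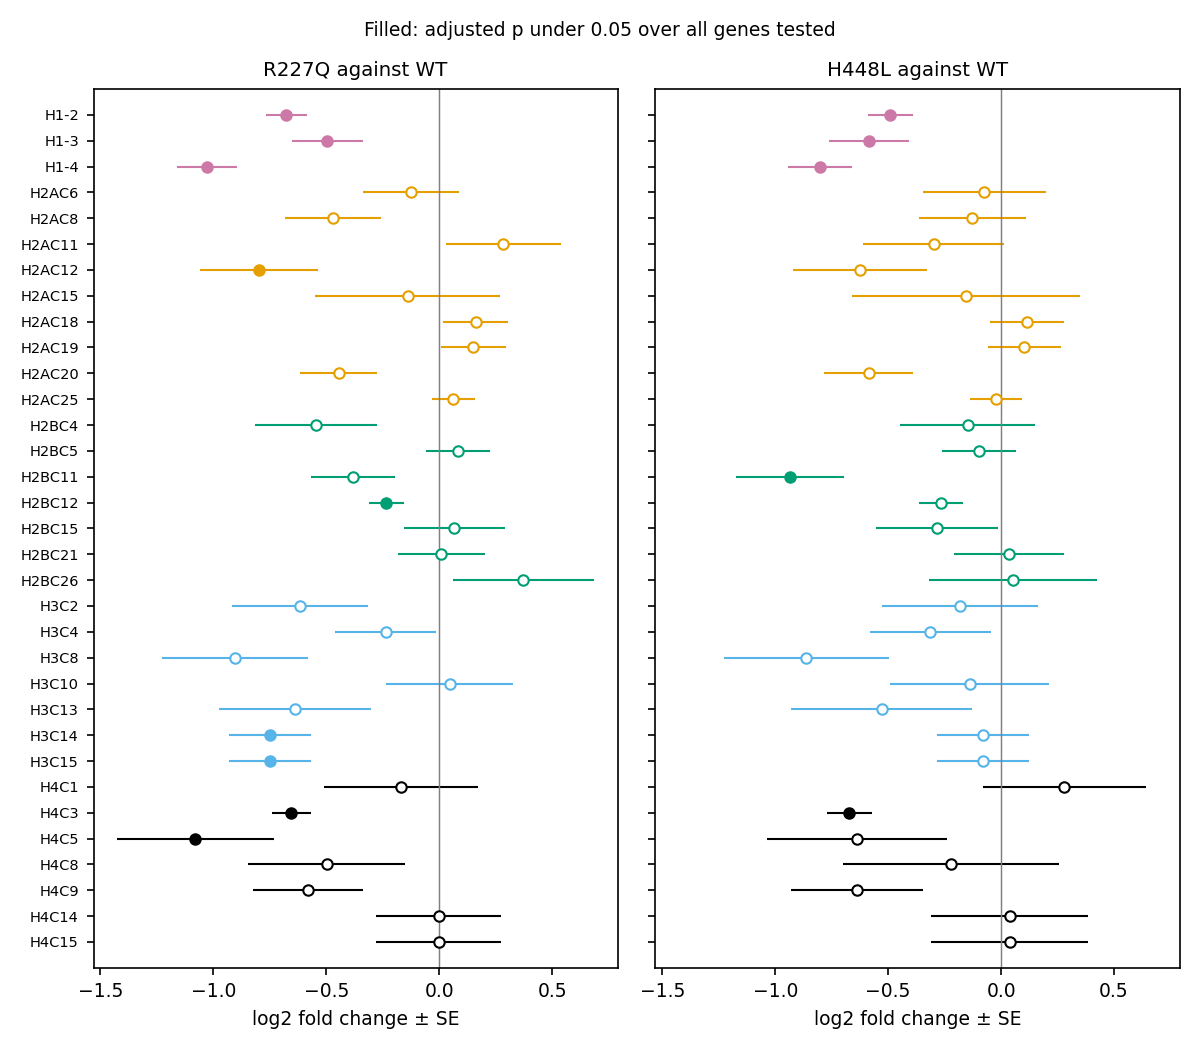
Log2 fold change ± SE of the 33 tested members in R227Q (left) and H448L (right) against WT, coloured by histone class, with filled points for edgeR adjusted p under 0.05. In R227Q 9 points are filled and in H448L 5, all below 0.

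H448L and R227Q were also compared directly. None of 33 members was called by edgeR, DESeq2 or limma-voom, where edgeR called 0.207% of genes tested, 0.0828% higher and 0.124% lower, and 5 members had an unadjusted edgeR p under 0.05. H4C3 differed by −0.02 ± 0.09 (SE, edgeR adjusted p = 0.973) and H1-4 by 0.23 ± 0.14 (SE, edgeR adjusted p = 0.584). H3C14, counted with H3C15, had 5.18, 6.52 and 3.81 CPM in H448L and 3.42, 3.66 and 2.80 CPM in R227Q libraries. The groups did not overlap, and the log2 fold change was 0.67 ± 0.19 (SE, edgeR adjusted p = 0.141). A p that misses the threshold does not show that the variants act alike on these genes.

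Several members also differed between submissions. Of 33 members, 5 were higher and 5 lower in 4LJFHN than in SDKYMR with genotype in the fit, where 20.8% of genes tested were higher and 23.0% lower, 43.8% in all. H1-2 was higher by 0.69 ± 0.09 (SE, edgeR adjusted p = 2.40e-07), H1-4 by 0.84 ± 0.13 (3.88e-06) and H1-3 by 0.59 ± 0.16 (0.00285). H1-2 had 25.7, 33.7 and 51.1 CPM as the lowest, median and highest of the 6 libraries of 4LJFHN, against 20.4, 25.5 and 28.9 CPM in the 3 libraries of SDKYMR. The inseparable pair H2AC18 and H2AC19 was higher by 0.43 and 0.44. In 4LJFHN both had 7.95 and 6.88 CPM in R227Q 2 and 3 and 7.21, 6.89 and 8.48 CPM in H448L 1 to 3, and in WT 3 H2AC18 had 7.43 and H2AC19 7.48 CPM. In SDKYMR both had 6.07 CPM in R227Q 1 and 4.87 and 4.44 CPM in WT 1 and 2. The submissions did not overlap for that pair. H2BC12 was lower, with a log2 fold change of −0.51 ± 0.08 (SE, edgeR adjusted p = 2.61e-06), and did not overlap, with 19.5 to 26.4 CPM in 4LJFHN and 30.6 to 32.2 CPM in SDKYMR. H4C3 was lower as well, at −0.38 ± 0.09 (SE, edgeR adjusted p = 7.26e-04). H2AC6 had 2.31 and 1.62 CPM in R227Q 2 and 3, 2.14, 2.31 and 2.63 CPM in H448L 1 to 3 and 3.08 CPM in WT 3, against 3.91 CPM in R227Q 1 and 3.69 and 2.95 CPM in WT 1 and 2. Its log2 fold change was −0.61 ± 0.22 (SE, edgeR adjusted p = 0.0220). H2BC21 had 3.03 and 3.36 CPM in R227Q 2 and 3, 3.72, 2.49 and 2.81 CPM in H448L 1 to 3 and 2.37 CPM in WT 3, against 3.64 CPM in R227Q 1 and 4.49 and 4.27 CPM in WT 1 and 2. Its log2 fold change was −0.55 ± 0.19 (SE, edgeR adjusted p = 0.0223). For H2AC6 and H2BC21 the submissions overlapped slightly. H4C8 had 0.486, 0.686 and 0.888 CPM as the lowest, median and highest in 4LJFHN, against 1.06, 1.24 and 2.39 CPM in SDKYMR, with no overlap and a log2 fold change of −1.11 ± 0.36 (SE, edgeR adjusted p = 0.0129). Without WT 3, 2 were higher and 2 lower, and the H4C3 value was −0.11 (edgeR adjusted p = 0.473). By DESeq2, 3 were higher and 1 was lower. The 8 fibroblast markers, 2 of them under 1 CPM on average and none at 0, summed to 1476 to 1607 CPM in 4LJFHN and 1109 to 1135 CPM in SDKYMR, and 5 of 6 tested were higher in 4LJFHN. The haematopoietic markers summed to 56.1 to 59.8 CPM in 4LJFHN and 69.8 to 72.4 CPM in SDKYMR, and 4 of 4 tested were lower in 4LJFHN. The part of these markers in the result was not tested.

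**Figure D5:**
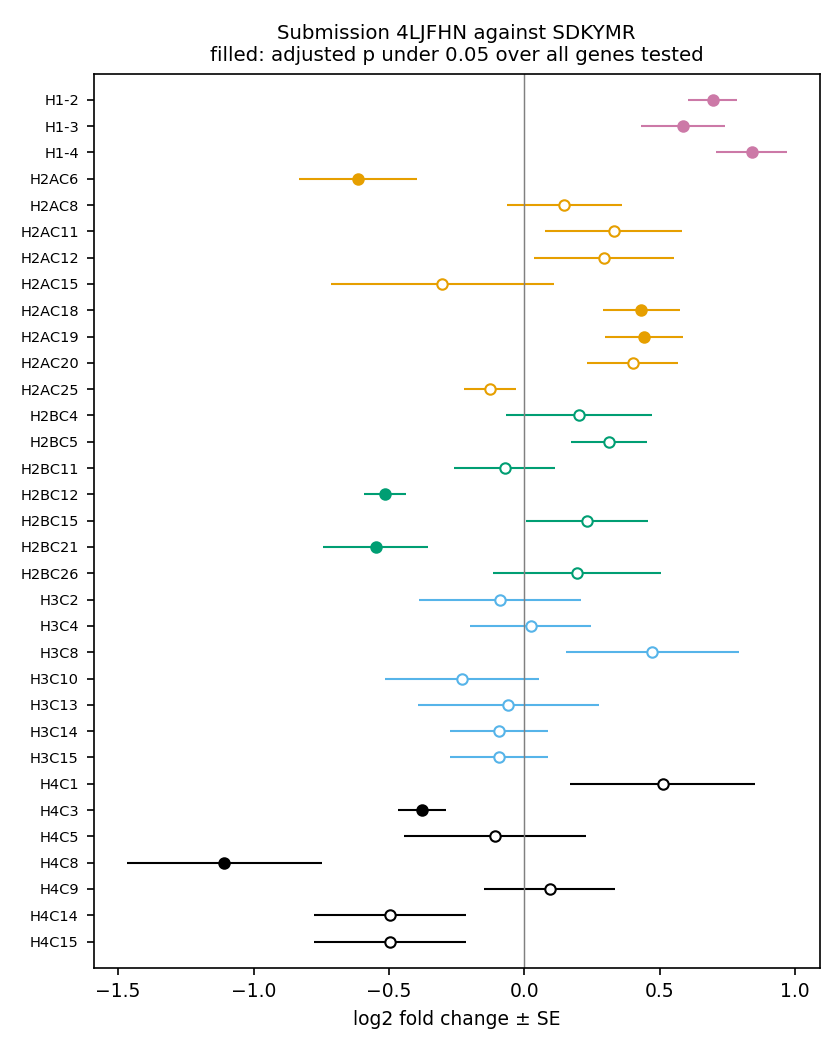
Log2 fold change ± SE of the 33 tested members in submission 4LJFHN against SDKYMR with genotype in the fit, filled where the edgeR adjusted p was under 0.05. The 3 H1 genes lie between 0.59 and 0.84, and H2BC12 and H4C3 at −0.51 and −0.38.

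The shift between submissions was uneven across genotypes for several of these genes. For H4C3, 4LJFHN minus SDKYMR was −0.64 within WT and −0.11 within R227Q. For H1-4 it was 1.06 within WT and 0.38 within R227Q, and for H1-2 it was 0.86 and 0.44. In a fit with a term for each genotype within each submission, the R227Q difference from WT was not called as differing between submissions for any of the 16908 genes. At an unadjusted p under 0.05 there were 736 genes (4.35%), and 6 of them were among the 33 members: H1-2, H1-3, H1-4, H2AC6, H2BC12 and H4C3. DESeq2 and limma-voom were not run on that term. WT in 4LJFHN and R227Q in SDKYMR are single libraries, so a departure of WT 3 or R227Q 1 cannot be told apart from a difference between submissions.

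Other RNAs without a classical poly-A tail were measured as well. Of 12 such RNAs tested, 7 were lower and 1 higher in 4LJFHN, where 23.0% of all genes tested were lower and 20.8% higher, with a median log2 fold change of −0.54, against 0.00 over all genes. RN7SK, a small nuclear RNA that restrains transcription elongation, was lower by a log2 fold change of −1.03 ± 0.21 (SE, edgeR adjusted p = 1.51e-04). MT-RNR1, the small mitochondrial ribosomal RNA, was lower at −0.90 ± 0.04 (SE, edgeR adjusted p = 2.35e-16), and MALAT1, a nuclear long noncoding RNA whose end is a triple helix, was higher at 0.77 ± 0.05 (SE, edgeR adjusted p = 3.81e-13). Between genotypes, 2 of 12 were lower in R227Q than in WT and none higher, where 9.91% of all genes were lower and 7.50% higher. In H448L 1 was lower and 1 higher, where 4.99% of all genes were lower and 2.97% higher. The part of poly-A capture in the histone results was not tested.

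H4C3 made up 75.6% to 89.0% of the summed CPM in a library, so by weight it carried most of the difference in the sum. That does not show a difference particular to H4C3. All members summed to 846 ± 32.5 CPM in R227Q, 806.7 ± 99.8 CPM in H448L and 1368 ± 256 CPM in WT libraries (SD, n = 3 each). These means are not adjusted for submission. Within 4LJFHN the sum was 1099 CPM in WT 3, 870 and 809 CPM in R227Q 2 and 3, and 699 to 896 CPM in H448L libraries. Without H4C3 the other 68 members summed to 154, 160.5 and 164 CPM in the R227Q libraries, to 174, 170.1 and 171 CPM in the H448L libraries, and to 183, 177 and 219 CPM in the WT libraries. The order of the groups held in every library, by a few CPM between H448L and WT 2. The H1 genes summed to 40.8 ± 8.50 CPM in R227Q, 53.5 ± 4.72 CPM in H448L and 57.5 ± 22.5 CPM in WT, with overlap. The H2A genes summed to 49.3 ± 2.62, 49.5 ± 1.96 and 49.8 ± 5.82 CPM in R227Q, H448L and WT, within the spread of the libraries. The H2B genes summed to 44.8 ± 4.64 CPM in R227Q, 39.9 ± 1.28 CPM in H448L and 52.6 ± 4.99 CPM in WT. The H3 genes summed to 13.6 ± 1.34 CPM in R227Q, 17.7 ± 3.57 CPM in H448L and 20.4 ± 0.459 CPM in WT. These sums count shared reads in each gene as deposited, are not adjusted for submission and were not tested.

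The replication-independent histones are the nearest relatives, and most are made from transcripts with an ordinary poly-A tail. Of 12 replication-independent histone genes tested, 5 were lower and none higher in R227Q, and 5 were lower and none higher in H448L, with medians of −0.11 and −0.06. Of all genes tested 9.91% were lower in R227Q and 4.99% in H448L. H1-10, a linker histone, was at 771, 755 and 791 CPM in R227Q, 747, 746 and 749 CPM in H448L and 888, 948 and 919 CPM in WT libraries. The groups did not overlap, and the log2 fold change was −0.26 ± 0.04 in R227Q and −0.32 ± 0.04 in H448L (SE, edgeR adjusted p = 7.73e-06 and 9.66e-06). H2AZ1, a variant placed at promoters, fell by 0.15 in R227Q and by 0.17 in H448L on the log2 scale (edgeR adjusted p = 0.00813 and 0.0137), and neither call was kept without WT 3 (edgeR adjusted p = 0.0715 and 0.164). H3-3B, which encodes H3.3, had log2 fold changes of 0.01 and −0.04, neither called (edgeR adjusted p = 0.837 and 0.603).

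Genes that act on histone mRNA were called at about the share of all genes or less. Of 28 genes of histone transcription and 3′ end processing, 1 was higher and 4 lower in R227Q, where 7.50% of all genes tested were higher and 9.91% lower. In H448L none was higher and 1 lower, where 2.97% of all genes were higher and 4.99% lower. NPAT had log2 fold changes of 0.18 ± 0.07 in R227Q and 0.17 ± 0.08 in H448L (SE, edgeR adjusted p = 0.0680 and 0.219). SLBP had −0.03 ± 0.04 and −0.11 ± 0.05 (SE, edgeR adjusted p = 0.689 and 0.188). NCBP2, the small subunit of the nuclear cap-binding complex, fell by 0.28 in R227Q and by 0.26 in H448L on the log2 scale (edgeR adjusted p = 3.78e-05 and 0.00186), and the H448L call was lost without WT 3 (edgeR adjusted p = 0.210). Of 29 histone chaperones and import factors, 2 were higher and 9 lower in R227Q, and 1 was higher and 4 lower in H448L. Lower calls were thus more frequent than the 9.91% and 4.99% among all genes. Of all genes 7.50% and 2.97% were higher. RBBP7, a histone-binding subunit of several chromatin complexes, had 206.5, 235.7 and 265.7 CPM in R227Q, 259.5, 272.2 and 256 CPM in H448L and 227.9, 232.1 and 324 CPM in WT libraries. The groups overlapped, WT 3 was the highest of all libraries, and each H448L library was above WT 1 and WT 2. The fitted log2 fold changes were −0.28 in R227Q and −0.26 in H448L (edgeR adjusted p = 1.37e-04 and 0.00295). Without WT 3 they were −0.17 and −0.11 and were not called (edgeR adjusted p = 0.148 and 0.610).

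Cell cycle genes bear on histone mRNA because this family is used in S phase. Of 29 S phase and replication genes, 7 were lower and none higher in R227Q, and 3 were lower and none higher in H448L, where 9.91% and 4.99% of all genes tested were lower. MCM5, a subunit of the replicative helicase, fell by 0.32 on the log2 scale in R227Q (edgeR adjusted p = 4.12e-05) and stood at −0.14 in H448L (edgeR adjusted p = 0.146). PCNA, the sliding clamp, fell by 0.13 in R227Q and by 0.15 in H448L (edgeR adjusted p = 0.0254 and 0.0452), and neither call was kept without WT 3 (edgeR adjusted p = 0.280 and 0.474). Of 20 genes of G2 and mitosis, 11 were lower in R227Q and 8 in H448L, and none was higher, with medians of −0.19 and −0.09. CCNB1, the mitotic cyclin, fell by 0.30 and by 0.27 (edgeR adjusted p = 2.68e-06 and 2.29e-04), and the H448L call was lost without WT 3 (edgeR adjusted p = 0.102). The part of the cell cycle in the histone results was not tested.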

How the data were processed

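Poly-A mRNA from 9 Hap1 libraries was sequenced by a commercial service that also extracted RNA and made tagmented cDNA libraries, per the labels' protocols. Per the submitters' processing notes, the genome build was GRCh38. The aligner, counter, annotation release and use of strand are not given in the labels. Estimated counts were deposited by gene, in 1 table per submission, per the file headers, with 78986 entries, of which 92 spike-ins were left out of tests. The authors also deposited CPM, each equal to the count over the total of its library times 1000000. Between 89.1% and 90.1% of all entries in a library were whole numbers, with entries that had no count included. Only 28041 to 29824 genes had a count in a library, so the whole share among those was lower. Counts were rounded before testing. Fractions and equal counts between paralogs make member values uncertain. Columns were matched to libraries by the names in the labels.

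Genes were kept by filterByExpr with the groups (16908), scaled by TMM factors (0.969 to 1.02) and tested with edgeR 4.0.16 (R 4.3.3) as quasi-likelihood fits of genotype and submission on all 9 libraries, two-sided, with 5 residual degrees of freedom and Benjamini-Hochberg adjustment over all genes tested. Standard errors were the log2 fold change over the root of F. The common biological coefficient of variation was 2.96%, and 12.7% without the submission term. Differences within submissions come from a fit with 1 mean per genotype and submission. Alternatives were DESeq2 1.42.0, limma-voom (limma 3.58.1), other factors and filters, counts not rounded, no submission term, 4LJFHN alone, a replicate block, and each library left out. The same fit was run on simulated counts with known fold changes. The simulation used the same spread for every gene and no departure of a single library. It therefore does not bear on a departure of WT 3 or R227Q 1. No library was a copy of another: chi-square per degree of freedom was 1.48 to 2.41 for libraries that share group and submission and 20.2 to 21.4 across submissions.

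The members and lists were chosen with earlier results of these data known. Values per library are given for the 12 called members with the highest mean CPM. H2AC12, H4C5, H4C8 and H2AC25 were added after their values were seen. From the other lists the text draws on genes set by name or by smallest p. GENCODE v29 gave positions and transcripts, and the identifiers of H2AC18, H2AC19, H3C2 and H3C3 were not matched there. Depth limits precision to counting steps of 0.0770 to 0.101 CPM.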

Additional observations from a re-analysis of the deposited data

How the results depend on the processing

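No called member changed sign in any alternative run that gave it an adjusted p. The 9 members lower in R227Q became 5 with DESeq2, 4 with 4LJFHN alone and 0 without the submission term, and 2 to 10 with each library left out, the lowest without WT 3 and 4 without R227Q 1. The 5 lower in H448L became 2 with DESeq2 and 1 without the submission term, and 3 to 5 with a library left out, the lowest without WT 3. The 5 members higher and 5 lower in 4LJFHN became 3 and 1 with DESeq2, and each 2 to 6 with a library left out, the lowest without WT 3, while 3 were lower without WT 1. Apart from these and the replicate block below, counts stayed within 1.5 times, including those with pairs that share reads summed, an alternative chosen after seeing the data. The causes were not tested.

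Same-numbered libraries deviated from their group means with correlations from −0.56 to 0.66. Between WT and R227Q the sign followed the submission, so these values cannot show whether replicate numbers pair the libraries. With a replicate block beside the submission term, 7 members were lower in R227Q and 4 in H448L, and 2 were higher and 2 lower in 4LJFHN.

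Depth limits the low members: 22 of 69 averaged under 3 counts and cannot show a difference.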
